A study of Mus musculus with 4 samples.

Results

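Il1rl1, Il1rap, Il17rb, Crlf2, Il18r1 and Il18rap encode chains of the receptors for IL-33, IL-25, TSLP and the related cytokine IL-18. They were chosen by name and are 6 of the 31053 genes counted in lung immune cells of mice with or without the ciliary transport gene Ift20 in T cells. The mice were C57BL/6 and all carried floxed Ift20 alleles, either alone (Ift20 f/f, called WT) or with CD4 cre (Ift20 f/f CD4 cre, called KO), a driver active in developing T cells and therefore in cells that become CD8 T cells as well. They were given DPBS, a buffered saline, or 25 µg of the protease allergen papain into the nose on 3 consecutive days, were challenged on day 14, and had their lungs taken on day 15. Live CD45.2+ cells were sorted, and each of the 4 combinations (DPBS WT and DPBS KO, then Papain WT and Papain KO, the order in which 4 values are given below) gave 1 single-cell library of 3′ transcript ends, with no statement of how many mice it holds.

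IL-33, IL-25 and TSLP are called alarmins because barrier cells such as the airway epithelium release them when they are damaged, as by a protease. In the lung they are known to act on group 2 innate lymphoid cells (ILC2), regulatory T (Treg) cells, T helper 2 cells, mast cells and basophils, many of which answer with type 2 cytokines. ST2, the product of Il1rl1, binds IL-33 and signals with the shared chain encoded by Il1rap; IL-17RB, from Il17rb, binds IL-25 and pairs with the chain from Il17ra; the TSLP receptor chain from Crlf2 pairs with the IL-7 receptor chain from Il7r. IL-18 uses the chains from Il18r1 and Il18rap, and is known for its action on natural killer (NK) cells and T cells that make interferon gamma.

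Levels below are counts of unique molecular identifiers (UMIs, each standing for 1 captured transcript) of a gene per 1000000 UMIs of a cell class (CPM), and they are compared between classes and libraries within a gene only. With 1 library per group no test was possible, no difference has a replicate check, and all intervals are 95% intervals that cover counting error only. In these sums, fewer transcripts per cell and fewer expressing cells within a class cannot be told apart, so shares of cells are given as well.

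The libraries held 5863 to 8552 barcodes and 53854420 to 75675956 UMIs, and 5421 to 7559 cells per library, 25831 in all, were kept. Pairs of libraries shared 7 to 16 barcodes. Cells were classed from marker genes that did not include the 6 receptor genes, and a name with the ending -like stands for a class rebuilt in this way. The 274 ILC2-like cells (68, 50, 80 and 76 in the libraries) had all 9 ILC2 markers in at least 10% of cells. The same held for 2 of 5 T cell markers (840 to 1007 CPM in sum, against 4650 to 5276 CPM in Treg-like cells). It also held for 3 of 7 Treg markers (751 to 894 CPM, against 2780 to 5550 CPM). Whether RNA of T cells adds to the ILC2-like class was not tested. Basophil markers summed to 4.60 to 21.0 CPM in ILC2-like cells, with 4 of 7 not counted, and mast cell markers to 76.1 to 114 CPM, with 3 of 5 not counted. Cells with at least 3 basophil or 3 mast cell markers had been moved out of every cluster into a class of their own. Low levels of these markers in the remaining cells follow in part from that step. The 321 Treg-like cells (65, 43, 150 and 63) had all 7 Treg markers, and 76.9% held a Foxp3 UMI. The other classes were T cells outside these (7987), NK-like cells (376), granulocytes (825, of which 818 were neutrophil-like), myeloid cells (7754), B and plasma-like cells (7438), T cells with NK receptors (366) and cells left unnamed (490). B and plasma-like cells were used as the background for free RNA of Il1rl1, Il17rb, Il18r1 and Il18rap. Ift20 followed the labels in T cells. In Treg-like cells it stood at 90.7 CPM under DPBS in WT and at 0 in KO, and at 93.7 CPM under papain in WT and at 16.8 CPM in KO. In ILC2-like cells it was 60.2, 70.0, 81.2 and 66.7 CPM, where both KO libraries lay between the WT ones.

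The IL-33 and IL-18 receptor genes are neighbours. Il1rl1 (ENSMUSG00000026069) lies on the plus strand of chromosome 1 at chr1:40429570-40465415 (GRCm38, GENCODE M21), Il18r1 (ENSMUSG00000026070) begins 136 bases after its end at chr1:40465552-40500854, and Il18rap (ENSMUSG00000026068) follows at chr1:40515362-40551705, all on the same strand. Despite this closeness the 3 genes had different patterns over the cell classes, as described below. Il1rl1 has 5 coding transcripts that differ at their 3′ ends, among them short forms that lack the last exons. The gene is known to make a membrane receptor and a soluble decoy from such forms, and the counts add both. The GATA factors, of which GATA3 is the known master regulator of type 2 lymphocytes, bind short words around GATA, so the 250 bases before each start site (RefSeq, GRCm38.p6) were searched for the word AGATAA, for TGATAA, and for both with a final G (AGATAG or else TGATAG), on both strands. The 3 windows below are shown because Il1rl1 and Il17rb are the genes led by the ILC2-like cells, and the words found stand in capitals.
Il1rl1, start at 40429570, chr1:40429320-40429569, plus strand: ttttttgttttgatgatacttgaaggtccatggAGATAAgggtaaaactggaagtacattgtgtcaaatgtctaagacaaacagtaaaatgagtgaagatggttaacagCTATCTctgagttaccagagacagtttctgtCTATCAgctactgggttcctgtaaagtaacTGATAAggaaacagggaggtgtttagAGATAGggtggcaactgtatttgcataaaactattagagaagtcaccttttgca
Il1rl1, start at 40439629, chr1:40439379-40439628, plus strand: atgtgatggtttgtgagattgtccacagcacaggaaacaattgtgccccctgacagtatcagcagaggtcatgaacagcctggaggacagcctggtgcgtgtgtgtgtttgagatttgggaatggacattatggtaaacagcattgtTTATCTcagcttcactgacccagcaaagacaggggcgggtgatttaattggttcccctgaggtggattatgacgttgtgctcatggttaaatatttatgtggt
Il17rb, start at 30008896, chr14:30008897-30009146, minus strand: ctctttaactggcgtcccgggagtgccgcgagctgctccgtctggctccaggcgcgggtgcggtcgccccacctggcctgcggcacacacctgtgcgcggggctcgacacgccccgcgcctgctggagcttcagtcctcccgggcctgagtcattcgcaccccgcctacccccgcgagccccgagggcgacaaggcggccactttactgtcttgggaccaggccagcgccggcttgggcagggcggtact

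The first Il1rl1 window held 5 of these words, the second held 1 and the Il17rb window none. Over the 32851 windows of all genes, 26.5% held a word and 6.40% held 2 or more. All 6 genes were matched, in 9 windows. Il18rap had 1 word and the windows of Il1rap, Crlf2 and Il18r1 had none. Counts of 3′ ends do not show which start was used, and a word in a window is a description of the letters only.

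Il1rl1 transcripts were concentrated in rare cells. The ILC2-like cells were 1.06% of the cells kept and held 33.8% of the 2117 Il1rl1 UMIs, the Treg-like cells were 1.24% and held 22.01%, and the other T cells were 30.9% of the cells and held 25.2%. In ILC2-like cells, Il1rl1 stood at 387 CPM under DPBS in WT (122 UMIs in 53 of 68 cells) and 448 CPM in KO (128 UMIs in 43 of 50), and 543 CPM under papain in WT (301 UMIs in 73 of 80) and 377 CPM in KO (164 UMIs in 64 of 76). All 4 libraries were thus high, with a mean of 438.9 ± 76.4 CPM (SD, n = 4 libraries of different groups), and the lowest of them was above the highest value of any other class built from clusters, which was the 311 CPM of Treg-like cells in Papain WT.

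In Treg-like cells, Il1rl1 was 63.5 CPM under DPBS in WT (28 UMIs in 17 of 65 cells) and 40.8 CPM in KO (12 UMIs in 3 of 43), and 311 CPM under papain in WT (372 UMIs in 82 of 150) and 101 CPM in KO (54 UMIs in 16 of 63). The Papain WT library stood well above the other 3. The cells that hold most transcripts also differed, since no Treg-like cell of DPBS WT had more than 4 Il1rl1 UMIs while 1 cell of Papain WT had 16 and 1 of Papain KO had 12. The UMIs of DPBS KO came from 3 cells.

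The other T cells were at 0.596 CPM under DPBS in WT (10 UMIs) and 0.702 CPM in KO (8 UMIs), and 28.1 CPM under papain in WT (462 UMIs in 102 of 2134 cells) and 3.66 CPM in KO (54 UMIs in 17 of 1775 cells). As in Treg-like cells, Papain WT was the highest library. Within these T cells the transcripts were not spread evenly. A class of mixed CD4 and CD8 T clusters (972 cells, 580 of them in a cluster with Cxcr3, Gzmk and Ifng among its leading genes and Foxp3 in 2.07% of cells) held 263 of the 462 UMIs of Papain WT, the dividing T cells 130 and a cluster led by Il17a 61, whereas CD4 T-like cells held 5, CD8 T-like cells 3 and gamma delta T-like cells 0. Of the marker lists, that of gamma delta T cells scored highest in the Il17a-led cluster, with Trdc in 15.1% and Cd4 in 50.6% of its cells. All 6 B cell markers were also in at least 10% of its cells, at 405 to 999 CPM in sum. The mixed clusters were at 0.646, 4.99, 105 and 1.75 CPM. The dividing T cells, of which 24.2% held a Foxp3 UMI, were at 1.51, 3.02, 54.6 and 19.8 CPM, and the Il17a-led cluster at 18.4, 4.17, 75.0 and 15.4 CPM. In the 2 latter classes the highest value was again that of Papain WT, and in the Il17a-led cluster the DPBS WT value rests on 5 UMIs.

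NK-like cells had 0, 2, 7 and 0 Il1rl1 UMIs, and all 7 of Papain WT were in 1 cell. Neutrophil-like cells had 1, 0, 2 and 1. Myeloid cells stood at 2.05, 1.63, 4.91 and 2.82 CPM, and most of that came from a class of macrophage and conventional dendritic cell markers, at 34.4, 36.1, 23.5 and 18.8 CPM. Basophil markers in that class were at 0.768 to 1.96 CPM in sum, with 5 of 7 not counted, after cells with at least 3 of them had been moved out. In at least 10% of its cells were 5 of 5 T cell markers (126 to 249 CPM in sum) and 5 of 6 B cell markers (232 to 486 CPM). The same held for 3 of 9 ILC2 markers (87.6 to 300 CPM). Whether RNA of lymphocytes adds to the Il1rl1 of this class was not tested. Mature dendritic cell-like cells had 21 UMIs in Papain WT, of which 20 were in 1 cell. No cluster of mast cells or basophils was found, but 7 cells with at least 3 markers of these types held 40 Il1rl1 UMIs, 14 in 3 cells of DPBS WT (1134 CPM), 26 in 3 cells of Papain KO (1392 CPM) and 0 in 1 cell of DPBS KO. Mast cells and basophils are known carriers of ST2.

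**Figure D1:**
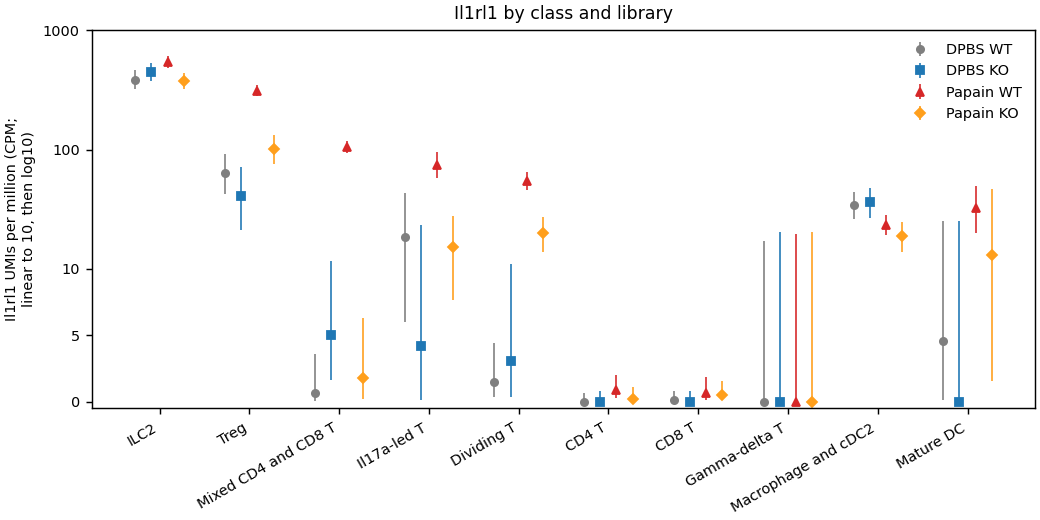
Il1rl1 level in CPM for each cell class, on an axis that is linear up to 10 and logarithmic above, with 1 point per library and 95% counting intervals as bars. The ILC2-like points lie together between 377 and 543 CPM, while the Treg-like points run from 40.8 to 311 CPM with Papain WT highest.

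Shares of cells with a UMI gave the same order of ILC2-like, Treg-like and other T cells after depth was made equal. Each cell was thinned to 1000 UMIs, and 1 ILC2-like, 0 Treg-like, 13 other T, 0 NK-like, 18 granulocyte, 75 myeloid and 5 B and plasma-like cells below that depth were left out. Thinned, 37.7% of ILC2-like cells (103 of 273), 12.5% of Treg-like cells and 0.364% of other T cells held Il1rl1, against 0.0135% of B and plasma-like cells (1 of 7433). Unthinned, these shares were 85.0%, 36.8%, 1.64% and 0.121%, and the median depth was 5458 UMIs in ILC2-like, 6450 in Treg-like, 6366 in other T and 4304 in B and plasma-like cells. By library, the thinned ILC2-like share was 38.8% under DPBS in WT and 34% in KO, and 46.3% under papain in WT and 30.3% in KO, and the Treg-like share was 9.23%, 0%, 20.7% and 4.76%. Papain WT was highest in both classes by share as well as by level.

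Il1rap, the accessory chain that Il1rl1 needs for signalling and that also serves the IL-1 and IL-36 receptors, had a quite different distribution. The gene (ENSMUSG00000022514, chr16:26581704-26730117, plus strand) overlaps Gm20319 on the other strand. Its highest level was in neutrophil-like cells, with 110 CPM under DPBS in WT (51 UMIs in 37 cells) and 122 CPM in KO (42 in 30), and 226 CPM under papain in WT (280 in 167) and 146 CPM in KO (129 in 89). Among the other named classes, alveolar macrophage-like cells had the highest mean, at 15.5, 18.2, 15.3 and 18.7 CPM, and the unnamed cells were at 24.3 to 44.1 CPM. In ILC2-like cells only 1, 3, 4 and 3 UMIs were counted (3.17, 10.5, 7.22 and 6.90 CPM), and in Treg-like cells 2, 1, 7 and 1. Other T cells stood at 4.05, 4.65, 4.08 and 3.86 CPM, next to B cell-like cells at 3.1 to 4.0 CPM. Thinned to 1000 UMIs, 0 of 273 ILC2-like cells held Il1rap, where a floor of 3 cells would be a share of 1.10%. The share was 16.3% in neutrophil-like cells (130 of 800) and 0.363% in B and plasma-like cells. Unthinned, these shares were 4.01%, 39.5% and 1.65%. At this depth the Il1rap levels of ILC2-like and T cells could not be separated from that of B and plasma-like cells. Whether the level in B and plasma-like cells is free RNA or their own expression was not tested.

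Il17rb, the chain that binds IL-25, was the rarest of the 6 genes, with 342 UMIs in 231 cells. The gene (ENSMUSG00000015966, chr14:29996135-30008896, minus strand) overlaps Actr8 on the other strand. ILC2-like cells held 46.5% of its UMIs, other T cells 35.4% and Treg-like cells 10.5%. In ILC2-like cells it stood at 105 CPM under DPBS in WT (33 UMIs in 25 cells) and 70.0 CPM in KO (20 in 12), and 105 CPM under papain in WT (58 in 35) and 111 CPM in KO (48 in 33). These 4 levels lay close together, and the counting interval of DPBS KO, the lowest, reached from 42.8 to 108.2 CPM. Thinned, 10.3% of ILC2-like cells held the gene, against 1.87% of Treg-like and 0.0135% of B and plasma-like cells (unthinned 38.3%, 7.17% and 0.0672%).

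In Treg-like and other T cells, Il17rb had the same highest library as Il1rl1. Treg-like cells had 1 UMI under DPBS in WT and 0 in KO, and 32 under papain in WT (26.8 CPM, in 21 of 150 cells) and 3 in KO, all 3 in 1 cell. Other T cells were at 0.655 CPM under DPBS in WT (11 UMIs) and 1.49 CPM in KO (17), and 4.87 CPM under papain in WT (80) and 0.881 CPM in KO (13). Of the 80 UMIs of Papain WT, 34 were in the mixed clusters and 34 in dividing T cells. The Il17a-led cluster differed from these, with 18.4, 29.2, 8.61 and 15.4 CPM on 5 to 11 UMIs and its lowest level in Papain WT. NK-like cells had 1 UMI in all.

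Il1rl1 and Il17rb were next counted in the same ILC2-like cells. Over the 4 libraries, 140 of the 274 cells held Il1rl1 alone, 93 held both, 12 held Il17rb alone and 29 neither. As 85.0% of these cells held Il1rl1, the share with both, 33.9%, lay near the product of the single shares, 32.6%. The share with both was 29.4% under DPBS in WT and 22% in KO, and 38.8% under papain in WT and 40.8% in KO. Cells with Il17rb but no Il1rl1 were 7.35%, 2%, 5% and 2.63%. In Treg-like cells both were found in 1, 0, 15 and 1 cells, and in other T cells in 1, 1, 30 and 0.

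**Figure D2:**
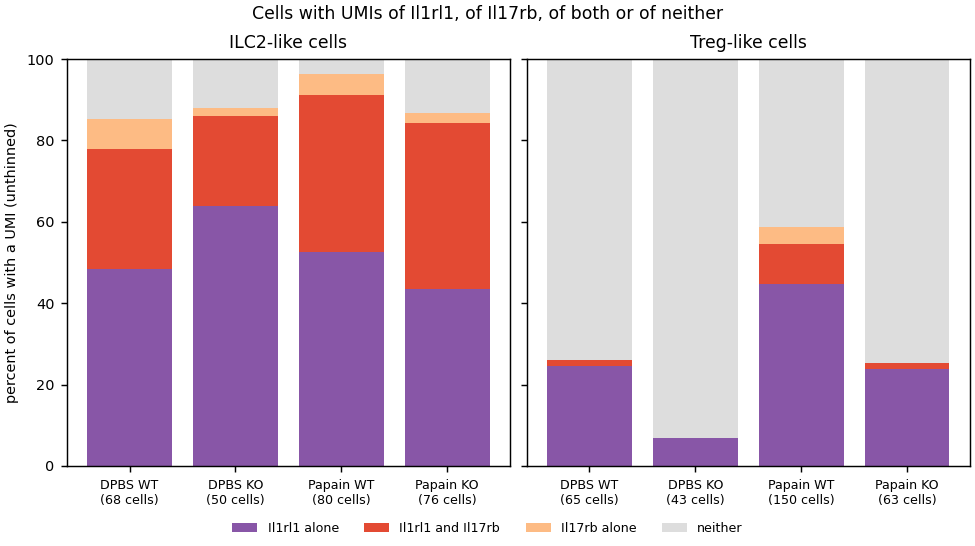
Share of ILC2-like cells (left) and Treg-like cells (right), in percent, that held UMIs of Il1rl1 alone, of both Il1rl1 and Il17rb, of Il17rb alone or of neither, with 1 bar per library. In ILC2-like cells the part with both genes runs from 22% in DPBS KO to 40.8% in Papain KO, and Il17rb alone stays at or below 7.35%. In Treg-like cells the part with both runs from 0% in DPBS KO to 10.0% in Papain WT.

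Crlf2, the chain that binds TSLP, was the most widely spread of the 6 genes, with 26096 UMIs in 12536 cells. The gene (ENSMUSG00000033467, chr5:109554709-109558993, minus strand) overlaps no other. Granulocytes were at 199 CPM under DPBS in WT and 260 CPM in KO, and 214 CPM under papain in WT and 261 CPM in KO, and nonclassical monocyte-like cells at 216, 232, 224 and 209 CPM. Myeloid cells as a whole stood at 133, 126, 143 and 152 CPM, NK-like cells at 131, 122, 137 and 105 CPM, and B and plasma-like cells at 102, 120, 107 and 112 CPM. Since B cells carried it too, they were no background for this gene. ILC2-like cells were at 136, 130, 112 and 92.1 CPM (43, 37, 62 and 40 UMIs), inside the range of the NK-like, myeloid and B and plasma-like cells or just below it. Other T cells were lowest, at 49.2, 55.7, 61.4 and 56.3 CPM.

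Treg-like cells had different levels of Crlf2 in the treatments. They stood at 74.8 CPM under DPBS in WT (33 UMIs) and 91.8 CPM in KO (27), and 162 CPM under papain in WT (194) and 153 CPM in KO (82). Both papain libraries were above both DPBS libraries, and the pattern was seen in either genotype. CD4 T-like cells stood at 46.1, 58.4, 45.2 and 54.7 CPM, each papain library below the DPBS library of its genotype. Both in other T cells as a group and in myeloid cells, the papain libraries were again above the DPBS libraries, but by at most 0.32 on the log2 scale within a genotype. Thinned to 1000 UMIs, Crlf2 was held by 10.6% of Treg-like, 10.3% of ILC2-like, 4.80% of other T, 13.03% of NK-like, 18.1% of granulocyte and 13.7% of myeloid cells, and unthinned by 52.3%, 41.2%, 28.7%, 47.3%, 52.1% and 77.1%. The unthinned myeloid share goes with a median depth of 15090 UMIs, against 3220 in granulocytes.

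Il18r1, which encodes the chain that binds IL-18, was led by an Il17a-led T cluster rather than by ILC2-like cells. This cluster was at 287, 267, 235 and 207 CPM. NK-like cells were at 173 CPM (147 UMIs), 124 CPM (51), 131 CPM (45) and 137 CPM (77), and T cells with NK receptors at 133, 81.9, 111 and 167 CPM. Treg-like cells stood at 54.4, 40.8, 69.4 and 61.7 CPM and CD8 T-like cells at 38.2, 26.2, 48.5 and 37.6 CPM. ILC2-like cells were low, with 7, 2, 15 and 7 UMIs (22.2, 7.00, 27.1 and 16.1 CPM), and without the cell of most UMIs in each library their mean went from 18.1 to 11.4 CPM. Thinned, 12.0% of NK-like and 21.3% of Il17a-led T cells held Il18r1, against 0.0404% of B and plasma-like cells (unthinned 48.7%, 76.6% and 0.471%).

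Il18rap, which encodes the signalling partner of that chain, stood highest in NK-like cells, at 210 CPM (179 UMIs), 176 CPM (72), 221 CPM (76) and 184 CPM (103). Neutrophil-like cells came next at 85.9, 107, 116 and 135 CPM, although they had Il18r1 at only 4.29 to 12.5 CPM. ILC2-like cells held 14, 9, 21 and 8 UMIs (44.4, 31.5, 37.9 and 18.4 CPM), Treg-like cells 6, 3, 43 and 8, and other T cells were at 8.69, 7.99, 16.3 and 10.4 CPM. Thinned, 18.9% of NK-like and 9.63% of neutrophil-like cells held the gene, against 0.0135% of B and plasma-like cells (unthinned 64.4%, 29.7% and 0.134%), with median depths of 5306, 3218 and 4304 UMIs. The chains of the IL-18 receptor thus had different leading classes, and in NK-like cells both stayed at or above 124 CPM in each library.

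**Figure D3:**
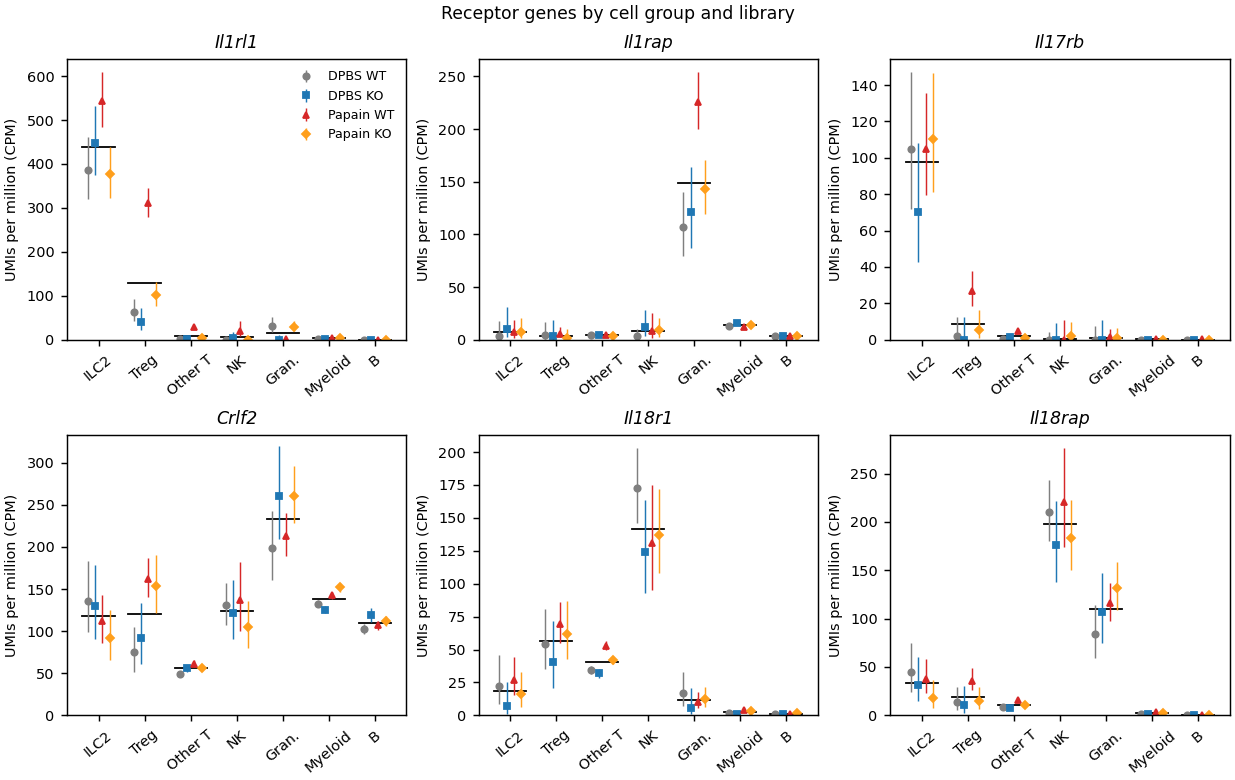
Levels of the 6 receptor genes in CPM by cell class and library, 1 panel per gene with its own axis from 0, with 95% counting intervals as bars and the mean of the 4 libraries as a black line (Gran., granulocytes; B, B and plasma-like cells). ILC2-like cells lead Il1rl1 and Il17rb, granulocytes lead Il1rap and Crlf2, and NK-like cells lead Il18r1 and Il18rap among the classes drawn.

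Transcripts of both chains of a receptor were then sought in the same cells, where a share of cells with both near the product of the single shares is what unrelated detection would give. Il1rl1 with Il1rap was found in 3.65% of ILC2-like cells (10 of 274, interval 1.76% to 6.61%), with a product of 3.41%. Il17rb with Il17ra was found in 12.0% of ILC2-like cells (8.44% to 16.5%), with a product of 9.51%, and Crlf2 with Il7r in 38.3% (32.5% to 44.4%), with a product of 38.8%. In each of these pairs the counting interval of the ILC2-like share included the product. Il18r1 with Il18rap was found in 32.98% of NK-like cells (124 of 376), with a product of 31.3%. In other T cells the IL-18 pair was found in 2.63%, above a product of 1.01%. Within that group it was found in 3.11% of CD8 T-like cells (2.49% to 3.83%), with a product of 1.47%, and in 4.42% of the mixed clusters (3.22% to 5.91%), with a product of 2.68%, and in the Il17a-led cluster the interval (11.1% to 20.7%) included the product of 12.8%. The CD8 T-like class pools clusters that differ, with Il18r1 in 14.4%, 15.3% and 43.8% of their cells and Il18rap in 2.14%, 2.80% and 23.5%. The mixed class does so too, with Il18rap in 21.7%, 2.25% and 0% of cells of its clusters. Over pooled clusters the share with both can lie above the product even where detection is unrelated within each. Products within single clusters were not computed, so these shares are not read as the chains occurring together.

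The partner chains were measured in most classes. Il7r, which serves TSLP and IL-7 receptors, was at 643, 686, 630 and 824 CPM in ILC2-like cells and at 8.37 to 28.2 CPM in granulocytes, and both chains of the TSLP receptor were found in 20 of 818 neutrophil-like cells. Treg-like cells stood at 269.8 to 430.8 CPM of Il7r, and 42.4% of them held both Crlf2 and Il7r. Il17ra was at 41.4 to 54.2 CPM in ILC2-like cells and at 200.8 to 234.0 CPM in granulocytes, which had 3 Il17rb UMIs in all 4 libraries. The ligands were scarce in these CD45.2+ cells: Il25 was not counted in any cell, Il33 had 17 UMIs and Tslp 44 over all cells kept, 38 of the latter in myeloid cells.

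Papain was compared with DPBS within each genotype to see how the receptors stood in challenged lungs. Values are log2 ratios of CPM, and a gene was read in a comparison where both libraries together held at least 20 of its UMIs. A gene can reach that number through the library where it is high, so the genes read differ between comparisons. In ILC2-like cells none of the 5 receptor genes with enough UMIs differed by 2-fold in WT, where 8.46% of all genes did. Their median was 0.002 beside 0.062 over all genes. Il1rl1 was higher by 0.49 (interval 0.18 to 0.81) and Il17rb by 0.002 (-0.64 to 0.66). In KO 0 of 3 differed by 2-fold, where 6.12% of all genes did, with a median of -0.25 beside 0.011. There the ratio of Il1rl1 was -0.25 (-0.59 to 0.10), an interval that includes 0.

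In Treg-like cells of WT, 4 of 5 receptor genes were at least 2-fold higher after papain, where 11.4% of all genes differed by that much in either direction. Their median was 1.40 beside 0.15 over all genes. Of these genes, Il17rb (1 UMI under DPBS and 32 under papain) and Il18rap (6 and 43) reached 20 UMIs only through Papain WT, where they are high. Neither was read in KO. The count and the median follow in part from that limit, and they do not cover the same genes as those of KO. Il1rl1 was higher by 2.29 (1.74 to 2.90), Il17rb by 3.56 (0.98 to 8.91, on 1 UMI in DPBS), Il18rap by 1.40 (0.16 to 2.93) and Crlf2 by 1.12 (0.58 to 1.70), while Il18r1 stood at 0.35 (-0.32 to 1.07). Not all of these stayed past 2-fold when cells were classed or scaled in other ways. Coarser clusters gave 3.11 for Il1rl1, 0.59 for Il18rap and 0.67 for Crlf2, and clusters without integration 0.70 for Il18rap and 0.89 for Crlf2. Crlf2 also fell short of 2-fold with the scaling factors of edgeR's TMM method (0.98) and with cells gated on their own transcripts (0.48), gates that put Il18r1 at 1.54. In KO 1 of 3 was past 2-fold, where 7.44% of all genes were, with a median of 0.74 beside 0.062. This was Il1rl1, at 1.31 (0.39 to 2.34) with its 12 DPBS UMIs in 3 cells, and Crlf2 was at 0.74 (0.10 to 1.42). With Tregs taken only as cells that held a Foxp3 UMI, a choice made after the values were seen, the ratio of Il1rl1 in KO was 0.94, under 2-fold, and the 4 Il1rl1 ratios in this class moved by less than their counting error.

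In other T cells of WT, 2 of 6 receptor genes were past 2-fold, Il1rl1 at 5.56 (4.67 to 6.63) and Il17rb at 2.89 (1.98 to 3.95), where 5.62% of all genes were. The median was 0.76 beside 0.11. The IL-18 receptor genes were higher by less, Il18rap by 0.90 (0.61 to 1.2) and Il18r1 by 0.62. In KO 1 of 6 was past 2-fold, where 4.15% of all genes were, with a median of 0.20 beside 0.053. Il1rl1 was higher there by 2.38 (1.30 to 3.66), but when T cells were gated on their own transcripts instead of clusters the ratio turned to -1.37. In NK-like cells 0 of 3 receptor genes were past 2-fold in either genotype, where 7.36% of all genes were in WT and 5.34% in KO. Their medians were 0.066 and 0.064, beside 0.004 and 0.028 over all genes. With transcript gates Il18r1 was at 1.05 in KO, past 2-fold.

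**Figure D4:**
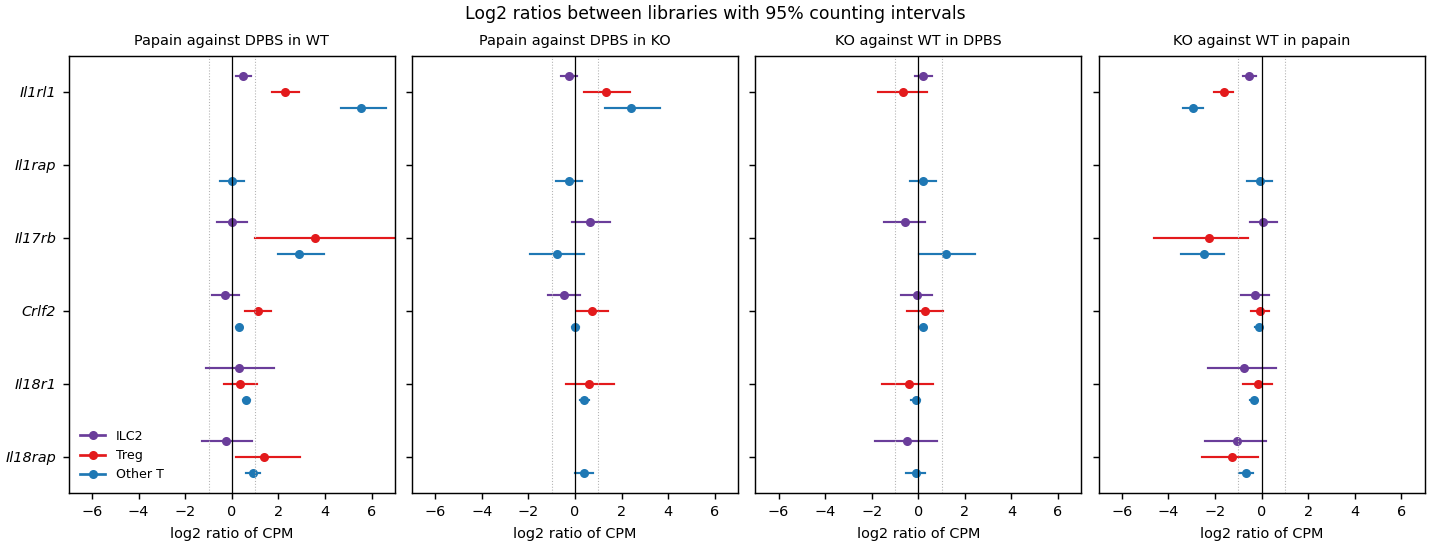
Log2 ratios of CPM between libraries for the receptor genes with enough UMIs, by cell class and comparison, with 95% counting intervals as bars, a line at 0 and dotted lines at 2-fold. The bar of Il17rb in Treg-like cells after papain in WT runs past the axis, to 8.91. Il1rl1 lies right of 0 after papain in WT Treg-like (2.29) and other T cells (5.56) and left of 0 in KO against WT under papain in ILC2-like (-0.53), Treg-like (-1.63) and other T cells (-2.94).

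KO was compared with WT within each treatment, with Ift20 lower in the T cells of KO and within the WT range in its ILC2-like cells. Under DPBS, 0 of 4 receptor genes in ILC2-like cells were past 2-fold, where 6.57% of all genes were, with a median of -0.28 beside -0.040. In Treg-like cells it was 0 of 3, where 9.07% of all genes were, with a median of -0.42 beside -0.074. In other T cells 1 of 5 was past 2-fold, where 4.13% of all genes were, with a median of 0.18 beside -0.056. This was Il17rb, higher in KO by 1.19 (0.009 to 2.43) on 17 against 11 UMIs, or by 0.97, under 2-fold, as a mean over cells. Il1rl1 was at 0.21 (-0.16 to 0.58) in ILC2-like and at -0.64 (-1.75 to 0.38) in Treg-like cells, where it was past 2-fold without the cell of most UMIs in each library (-1.13) and as a mean over cells (-1.24). Il18rap in ILC2-like cells was at -0.49, or -2.74 with transcript gates. In NK-like cells 0 of 3 were past 2-fold, where 6.96% of all genes were, and the ratio of Il18r1 was -0.47 (-0.96 to -0.005), or -1.44 with transcript gates, which also put Il18rap at -1.21. The median of these 3 was -0.26 beside -0.052 over all genes.

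Under papain, Il1rl1 was lower in KO than in WT in ILC2-like, Treg-like and other T cells. In ILC2-like cells 1 of 5 was past 2-fold, where 9.09% of all genes were, with a median of -0.53 beside -0.10. This was Il18rap at -1.04 (-2.43 to 0.19), on 8 against 21 UMIs, and with TMM scaling it was at -0.93, under 2-fold. Il1rl1 was at -0.53 (-0.81 to -0.25) and Il17rb at 0.077 (-0.51 to 0.65). In Treg-like cells 3 of 5 were past 2-fold, where 9.81% of all genes were, with a median of -1.27 beside -0.15. These were Il1rl1 at -1.63 (-2.06 to -1.21), Il17rb at -2.26 (-4.61 to -0.58) and Il18rap at -1.27 (-2.57 to -0.16), while Crlf2 stood at -0.083 (-0.47 to 0.30). Il17rb (3 UMIs in KO against 32 in WT) and Il18rap (8 against 43) reached 20 UMIs only through Papain WT. The count and the median follow in part from that limit. Under DPBS neither gene was read, so the counts of the 2 treatments do not cover the same genes. Treg-like cells gated on transcripts gave -0.86 for Il1rl1, and coarser clusters -2.28. With the same gates Il18rap was at 0.047, on the other side of 0, and it was under 2-fold without integration (-0.75), with coarser (-0.47) and finer clusters (-0.80) and as a mean over cells (-0.84).

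In other T cells under papain, 2 of 6 receptor genes were past 2-fold in KO against WT, where 3.56% of all genes were, with a median of -0.49 beside -0.11. Il1rl1 was at -2.94 (-3.38 to -2.53) and Il17rb at -2.47 (-3.44 to -1.61), and the IL-18 receptor genes were lower by less, Il18rap at -0.65 (-0.95 to -0.36) and Il18r1 at -0.33. Depending on how T cells were defined, the ratio of Il1rl1 lay between -5.84 (transcript gates) and -1.96 (coarser clusters), and that of Il17rb reached -4.17 without integration. In NK-like cells 0 of 3 were past 2-fold, where 6.19% of all genes were, with a median of -0.27 beside -0.021. The 4 comparisons share libraries, so the low Il1rl1 values of KO under papain and its high values of WT after papain rest in part on the same Papain WT cells. The numbers of cells in the classes moved too. Treg-like cells were 0.860%, 0.793%, 2.02% and 1.16% of the cells of the libraries, and ILC2-like cells 0.900%, 0.922%, 1.08% and 1.40%.

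Outside lymphocytes, Il1rap in neutrophil-like cells was higher after papain in WT by 1.04 (0.61 to 1.5) and lower in KO than in WT under papain, at -0.63 (-0.94 to -0.32). The number of neutrophil-like cells also differed, with 354 in Papain WT against 122 in DPBS WT. In myeloid cells of WT, Il1rl1 was higher after papain by 1.26 (0.85 to 1.68) and Il18rap by 1.30 (0.80 to 1.81), at 3.40 against 1.38 CPM, and in KO Il18r1 was higher by 1.75 (1.08 to 2.45), at 3.02 against 0.897 CPM. These levels are low, and in the macrophage and dendritic cell class that holds most myeloid Il1rl1 the ratio had the other sign, at -0.55 (-1.01 to -0.079) in WT and -0.94 (-1.55 to -0.33) in KO. That class was 121 of 2239 myeloid cells in DPBS WT and 339 of 2309 in Papain WT, and 89 of 1942 in DPBS KO and 138 of 1264 in Papain KO. The myeloid ratio is thus one of a pool whose make-up differed between libraries. In myeloid cells of WT, Il18rap was at 0.97 with called doublets kept.

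The T cells that held Il1rl1 in Papain WT were examined for other transcripts, with genes chosen after the values were seen. Among the 102 other T cells with Il1rl1, 80.4% held Cd4 and 5.88% Cd8a, against 43.0% and 28.7% of the 2032 without. Gata3, the type 2 regulator, was held by 87.3% against 31.6%. The cytokine genes Il4, Il5 and Il13 were held by 18.6%, 13.7% and 18.6%, against 0.886%, 0.197% and 0.591%. Il17rb was held by 29.4% against 0.787% and Crlf2 by 60.8% against 30.1%. These cells were deeper, with a median of 9867 UMIs against 6310. Thinned to 1000 UMIs, which left out 6 cells without Il1rl1, Cd4 was held by 20.6% against 11.6%, Gata3 by 52.0% against 7.35%, Il13 by 6.86% against 0.148% and Crlf2 by 11.8% against 4.74%. In Papain WT the Il1rl1 cells among other T cells thus were mostly Cd4 cells with Gata3, and 18.6% held Foxp3 against 1.92%. Of the 102, 55 were in the mixed clusters, 24 were dividing T cells and 16 were in the Il17a-led cluster. The CD4 T-like class (984 cells) had 4 of them and the CD8 T-like class (564) had 3. Whether cells with and without Il1rl1 differ in this way within a cluster was not tested. In Papain KO, 17 other T cells held Il1rl1. Unthinned, 64.7% of these held Cd4, 88.2% Gata3, 47.1% Foxp3, 17.65% Il13 and 0% Il4.

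Among Treg-like cells of Papain WT, 82 held Il1rl1 and 68 did not. Foxp3 was held by 92.7% against 69.1%, Gata3 by 90.2% against 63.2%, and Areg, which encodes the tissue repair factor amphiregulin, by 57.3% against 26.5%. Il2ra, the high-affinity IL-2 receptor chain, was held by 86.6% against 52.9% and Crlf2 by 74.4% against 52.9%. No Treg-like cell of this library with Il1rl1 held Il4, Il5 or Il13. Here too the cells with Il1rl1 were deeper, at 7886 against 5406 UMIs, and thinned to 1000 UMIs the shares were 36.6% against 29.4% for Foxp3, 41.5% against 23.5% for Gata3, 24.4% against 13.2% for Areg, 34.1% against 20.6% for Il2ra and 18.3% against 13.2% for Crlf2. Cd4 went the other way after thinning, at 7.32% against 22.1%, and so did Il17rb, at 1.22% against 4.41% (unthinned 68.3% against 67.6% and 18.3% against 8.82%).

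Genes of the pathways downstream were counted over a list of 43 ligands, partner and decoy chains, adaptors, kinases, NF-kB genes and output cytokines. In ILC2-like cells of WT, 24 had enough UMIs, and 5 were at least 2-fold higher and 1 lower after papain, where 8.46% of all genes differed by that much. Il13, which encodes the cytokine that drives mucus and eosinophil entry, was at 468 against 19.0 CPM, Csf2 at 789 against 269 CPM and Areg at 1085 against 507 CPM. Il1r2, a decoy receptor for IL-1, had 211 UMIs in Papain WT and 0 in DPBS WT, at least 40.1-fold higher against a floor of 3 counts, but 67 of the 211 were in 1 cell and all in 10 cells. In KO, where 6.12% of all genes were past the fold, 1 of 19 was higher and 1 lower, Il13 at 223 against 101.5 CPM and Il5 at 89.8 against 186 CPM.

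Between genotypes, 3 of 19 list genes were higher and 0 lower in KO ILC2-like cells under DPBS (6.57% of all genes past the fold), namely Il13 at 2.42 (1.12 to 3.98), Il5 at 1.17 (0.47 to 1.91) and Csf2 at 1.19 (0.80 to 1.58). Under papain 0 of 25 were higher and 4 lower (9.09% of all genes), with Il13 at -1.07 (-1.42 to -0.72), Stat5b, a signal transducer of the TSLP receptor, at -1.29 (-2.65 to -0.10), the kinase gene Irak1 at -1.06 (-1.93 to -0.26) and Il1r2 at 0 UMIs. In Treg-like cells 6 of 27 list genes were higher and 0 lower after papain in WT (11.4% of all genes), among them the NF-kB gene Nfkb1 at 1.17 (0.93 to 1.41), Rora at 1.42 (1.15 to 1.70) and Il1r2 at 3.58 (1.67 to 6.66). In KO 3 of 20 were higher and 0 lower (7.44% of all genes), with Gata3 at 1.39 (0.89 to 1.92). KO against WT gave 4 higher and 0 lower of 19 under DPBS (9.07% of all genes), and 1 higher and 5 lower of 27 under papain (9.81%), with Nfkb1 at -1.06 (-1.28 to -0.85) and Rora at -1.15 (-1.39 to -0.92). The Treg-like cells thus had Il1rl1, Nfkb1 and Rora all highest in Papain WT.

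In other T cells the list gave 10 higher and 0 lower of 39 after papain in WT, 7 higher and 2 lower of 37 in KO, 0 higher and 2 lower of 36 in KO against WT under DPBS, and 0 higher and 8 lower of 39 under papain, where 5.62%, 4.15%, 4.13% and 3.56% of all genes were past the fold in either direction. In the last of these, Il4 was at -4.81 (-6.45 to -3.56), on 5 against 156 UMIs, Il13 at -5.17 (-6.24 to -4.28), on 10 against 401, and Gata3 at -1.26 (-1.37 to -1.15). The median of the list was 0.28, -0.020, 0.14 and -0.13 in ILC2-like cells, 0.61, 0.078, 0.15 and -0.33 in Treg-like cells, and 0.30, -0.006, 0.17 and -0.34 in other T cells, with papain against DPBS in WT and in KO and then KO against WT under DPBS and under papain. The Papain WT cells with Il1rl1 described above are among those that hold these cytokine genes.

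The genes with patterns most like each receptor gene were taken by Pearson's r of log2(CPM + 10) over 64 points, each a class in 1 library with at least 30 cells. The points of a library share its depth and handling, so r is a description. For Il1rl1 the closest were Ccr8 (0.90), Ptpn13 (0.89), Il2ra (0.87), Il17rb (0.86) and Areg (0.86). For Il17rb they were Ptpn13 and Ccr8 (both 0.94), Pard3 (0.93), Calca and Hlf (both 0.92), so these alarmin receptor genes had each other or the same chemokine receptor gene, Ccr8, among their nearest. Crlf2 was closest to Mapkapk2 (0.89) and Nr4a1 (0.88), and Il18r1 to Il2rb (0.89) and Sh2d2a (0.85). Il1rap was closest to Cxcr2, the neutrophil chemokine receptor gene, and to S100a8 (both 0.94). Il18rap had no gene above 0.77, and with Il18r1 it reached 0.65.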

How the data were processed

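Per the file headers and labels, the authors deposited raw UMI counts per gene and barcode for the 4 libraries. The submitters' processing notes name Cell Ranger and the mm10 build, and the annotation is not given in the sources used here. The 6 genes, the gene lists, the markers and the alternatives were chosen with earlier results of these data known, and the rule for naming clusters was set after clusters had been seen. Barcodes with over 200 genes and under 15% mitochondrial UMIs were kept. Scrublet, as in scanpy 1.11.5, ranked likely doublets, and the top 0.8% per 1000 barcodes of each library were removed (1713 in all). Seurat 5.3.0 integrated the libraries by canonical correlation and clustered the cells (2000 variable genes without the receptor genes, 30 dimensions, resolution 0.8).

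UMIs were summed per class and library. Intervals are exact Poisson for levels, exact conditional for ratios and Clopper-Pearson for shares. Scripts were tested on simulated data. A list gene was named where it held at least 20 UMIs in the comparison and differed 2-fold with an interval that left out 0, and for likeness the 5 nearest genes with at least 200 UMIs were computed. Genes of the cell comparison within T cells, single clusters and the mast and basophil cells were chosen after values were seen. TMM factors of edgeR 4.0.16 and size factors of DESeq2 1.42.0 served as scaling alternatives only. Other alternatives were finer and coarser clusters, no integration, classes gated on each cell's own marker UMIs, called doublets kept, a stricter barcode filter, means over cells and the cell of most UMIs left out.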

Additional observations from a re-analysis of the deposited data

Results flagged for a closer look

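4 differences between WT and KO had opposite signs in the 2 treatments, with counting intervals that left out 0 in both. They were picked out of comparisons of the receptor genes over many cell classes. No share of all genes with such a change of sign is given beside them. Whether 4 is more than other genes would give was not tested. As each group is 1 library, whether the effects themselves differ was not tested. In other T cells, Il17rb in KO against WT stood at 1.19 (log2) under DPBS, or 0.97 as a mean over cells, and at -2.47 under papain. In dividing T cells, Il18r1 stood at 0.76 and -0.50, and in T cells with NK receptors at -0.70 and 0.58. In myeloid cells, Crlf2 stood at -0.078 and 0.092, both small.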

How the results depend on the processing

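No paired analysis was possible because each group holds 1 library and the labels carry no replicate numbers. Scaling by TMM or size factors moved none of 103 values beyond counting error, though Crlf2 in Treg-like cells of WT, Il18rap in ILC2-like cells under papain and Il18r1 in myeloid cells of WT (1.00 and 1.01 after papain) crossed 2-fold. Naming cells by gates on their own transcripts, instead of clusters, reversed Il18rap in Treg-like cells of KO against WT under papain (0.047) and Il1rl1 in other T cells of papain against DPBS in KO (-1.37). With these gates Il1rl1 in KO against WT was -0.19 in ILC2-like cells under DPBS, -0.89 in ILC2-like and -0.86 in Treg-like cells under papain. With each cell's own CPM averaged, Il1rap in myeloid cells of WT turned to 0.028 for papain against DPBS, and the mean Il1rl1 level was 479.9 CPM in ILC2-like and 116.2 CPM in Treg-like cells. Il18rap in Treg-like cells fell under 2-fold without integration and at resolution 0.4, for papain in WT (0.70 and 0.59) as for KO under papain (-0.75 and -0.47). Resolution 0.4 gave Il1rl1 ratios in Treg-like cells of 3.11 for papain in WT and -2.28 for KO under papain. The mean Il1rl1 level of Treg-like cells, 129.1 CPM, was 114.3 without integration, 110.5 by gates, 63.65 at resolution 0.4, 109.3 at resolution 1.2 and 116.5 without the cell of most UMIs in each library. Without that cell Il18r1 in ILC2-like cells averaged 11.4 CPM. The share of all genes past the fold, 3.56% to 11.4% over the 16 comparisons, was 10.8% to 29.2% at 1.5-fold, 1.6% to 7.08% with at least 50 UMIs and 10.5% to 22.6% with 1 UMI in both libraries. The cause of these moves was not tested. Keeping only Foxp3-holding cells, or leaving the 7 mast and basophil cells in their clusters, both tried after seeing the data, moved no value beyond counting error, but the former put Il1rl1 after papain in KO at 0.94, under 2-fold.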
